A study of Mus musculus with 96 samples.

Results

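The 6 genes described here were the adult alpha globin genes Hba-a1 and Hba-a2 and the adult beta globin genes Hbb-b1, Hbb-b2, Hbb-bs and Hbb-bt. They were chosen by symbol, out of 41575 gene symbols in the count table, because earlier results from these data had shown beta globin genes that differed between libraries. The bulk libraries came from 16 tissues of wild-type (WT) and Scx-/- mice aged 3 weeks, with 3 libraries per tissue and genotype and 96 libraries in all. Scx encodes scleraxis, a transcription factor of tendon and ligament progenitors, and the Scx-/- mice lack it throughout the body. Tissues were taken at necropsy and frozen as whole organs, and the labels give neither the strain nor the sex of the mice nor which libraries came from 1 mouse.

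Total counts per library ran from 11244 to 1658192, with a median of 251640 and 16 libraries under 100000. Scx itself had 80 counts in 12 of 48 WT libraries and 9 counts in 1 of 48 Scx-/- libraries, so the targeted gene was too sparse to check most labels. The 9 counts were all in the cartilage library labelled Scx-/- replicate 1, at 37.2 CPM, where the WT cartilage libraries had 0, 7 and 1 counts and the other Scx-/- cartilage libraries 0. The targeted gene thus goes against the label of that library, and the deleted part of the gene was not given in the sources used here. The genotype comparisons of summed globin and of Hba-a1 in cartilage are given under the labels, with the value without that library beside them. Tissue markers matched the labels in most tissues, for example Myh6 in heart, Alb in liver and Sftpc in lung. The other lung marker, Sftpb, had counts in 0 of 6 lung libraries. In the libraries labelled adipose, however, the adipocyte genes Adipoq and Plin1 each had counts in 1 of 6 libraries.

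Haemoglobin is the oxygen carrier of red cells and is built from a pair of alpha and a pair of beta chains, each holding a heme group. The alpha genes lie as a nearly identical tandem pair on chromosome 11 and the beta genes in a separate cluster on chromosome 7. Inbred mice carry different versions of the beta cluster: in the d haplotype, found for example in BALB/c, DBA/2 and 129 mice, the adult genes are Hbb-b1 (beta major) and Hbb-b2 (beta minor), and in the s haplotype of C57BL mice they are Hbb-bs and Hbb-bt. Red cells that have left the marrow keep globin mRNA while they are reticulocytes, so globin reads in a whole organ come from the blood it holds as well as from any red cell formation in it. Fewer red cells and less globin mRNA per cell cannot be told apart in bulk tissue.

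The reference assembly GRCm38 carries Hbb-bs and Hbb-bt at the beta cluster. Its annotation places Hba-a1 at chr11:32283511-32284465 and Hba-a2 at chr11:32296489-32297298 on the plus strand, and Hbb-bs at chr7:103826534-103828096 and Hbb-bt at chr7:103812524-103813996 on the minus strand. Each model has 3 exons. Where the annotation used for counting placed Hbb-b1 and Hbb-b2 is not given in the sources used here, and their sequences were not used here. A count under these 2 symbols is therefore described by its symbol, and the haplotype names below refer to the genes' names.

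How close the pairs are decides which reads can tell them apart, so the only coding differences are shown here. The 426 coding bases of Hba-a1 and Hba-a2 differed at 1 position, C381T, and the 441 coding bases of Hbb-bs and Hbb-bt also differed at 1 position, C417T. Positions are counted from 1 at the A of the start codon, and the first named gene gives the first base. In the following 60-base stretches of exon 3, 5′ to 3′ on the coding strand from GENCODE transcripts of GRCm38, the differing base is in capitals. The stretches lie at chr11:32284313-32284372, chr11:32297130-32297189, chr7:103826668-103826727 and chr7:103812659-103812718.
Hba-a1: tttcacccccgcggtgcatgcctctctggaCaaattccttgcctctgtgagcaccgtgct
Hba-a2: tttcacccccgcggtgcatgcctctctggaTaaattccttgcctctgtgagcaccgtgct
Hbb-bs: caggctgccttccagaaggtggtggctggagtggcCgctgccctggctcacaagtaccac
Hbb-bt: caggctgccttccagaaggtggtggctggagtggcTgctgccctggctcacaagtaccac

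From the stop codon on, the pairs behaved differently. All 53 windows of 25 bases in the Hba-a1 model recurred in Hba-a2, and they made up 53 of 69 in the Hba-a2 model (76.8%), whereas 0 of 110 such windows of Hbb-bs recurred in Hbb-bt. Over the whole transcript, 439 of 505 windows of 50 bases in Hba-a2 (86.9%) were also in Hba-a1, and 381 of 579 in Hbb-bs (65.8%) were also in Hbb-bt. As a share of the partner's transcript these were 439 of 650 windows of Hba-a1 (67.5%) and 381 of 654 of Hbb-bt (58.3%). The study describes its libraries as enriched for 3′ ends, where the alpha pair shares most of its sequence. Which part of the transcripts was read was not measured here, and the division of counts between Hba-a1 and Hba-a2 is uncertain.

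The proximal promoters are shown because the members were read together across tissues. The 120 bases before the RefSeq start (GRCm38.p6) were searched on both strands for 3 short motifs. The first motif is CCAAT, the letters of the box of that name. The second is CACCC, the letters of the box that the erythroid Kruppel-like factor Klf1 recognises. The third is TATAA, the core of the TATA box. RefSeq and GENCODE place the gene starts differently, so 120 of these bases lie in an annotated GENCODE exon for Hba-a1, 3 for Hba-a2, 37 for Hbb-bs and 73 for Hbb-bt. Only the bases outside such exons are printed, 5′ to 3′ in the direction of transcription, with whole matches to the motifs on either strand in capitals. They lie at chr11:32296372-32296488, chr7:103827929-103828011 and chr7:103813997-103814043.
Hba-a2: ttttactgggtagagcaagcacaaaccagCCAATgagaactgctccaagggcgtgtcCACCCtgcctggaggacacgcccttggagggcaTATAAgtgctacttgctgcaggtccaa
Hbb-bs: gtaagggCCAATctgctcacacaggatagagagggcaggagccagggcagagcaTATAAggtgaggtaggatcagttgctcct
Hbb-bt: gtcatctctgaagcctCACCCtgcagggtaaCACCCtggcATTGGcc

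All 4 windows of 120 bases held each of the 3 motifs. Over 32817 mouse promoters of the same length, CCAAT was found in 21.3%, CACCC in 31.7%, TATAA in 11.9% and all 3 together in 0.689%. Once shifted by 3 bases, the alpha promoters were identical over all 290 bases compared, from upstream of the searched window to beyond the RefSeq start. At its closest shift, the Hbb-bt promoter matched Hbb-bs at 164 of 290 bases (56.6%). A match is a description of letters and not a tested site.

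Globin genes took 753404 of the counts in the series, or 2.24%. Hbb-b1 alone held 604300 of these counts (80.2%), Hbb-b2 81616, Hba-a1 42591, Hbb-bs 19976, Hbb-bt 3281 and Hba-a2 1640. Hba-a1, Hbb-b1 and Hbb-b2 had counts in all 96 libraries. Hbb-bs, Hba-a2 and Hbb-bt had counts in 43, 32 and 17 libraries.

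Spleen, a site of red cell formation and storage in young mice, held far more globin than any other tissue. In the WT spleen libraries the 6 genes made up 24.6%, 13.1% and 19.0% of all counts (18.9% ± 5.79, SD, n = 3), and in the Scx-/- spleen libraries 30.3%, 31.9% and 21.2% (27.8% ± 5.77, SD, n = 3). These ranges overlapped. Of the 6 spleen libraries, 5 lay above the highest library of any other tissue, a vascular Scx-/- library at 13.3%, and WT replicate 2 lay just below it.

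Below spleen the spread between libraries was wide. The means over 6 libraries were 7.43% ± 4.15 (SD) in vascular samples, 6.80% ± 3.01 in lung, 4.36% ± 2.75 in bone, 2.19% ± 2.27 in cartilage, 2.08% ± 1.08 in heart and 1.48% ± 1.04 in bladder. In the other 9 tissues the means lay between 0.328% in rectum and 0.647% in muscle. Every pair of neighbours in this order, 15 of 15, had overlapping ranges, spleen and vascular samples only through WT replicate 2 of spleen. The order of adjacent tissues below spleen is not resolved by these libraries. The study left its vascular samples out of later comparisons as contaminated, since the genes specific to them pointed to brown fat cell differentiation. The smooth muscle genes Acta2 and Myh11 ranked the vascular samples 3rd of 16 tissues by median CPM. These ranks do not address brown fat.

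**Figure D1:**
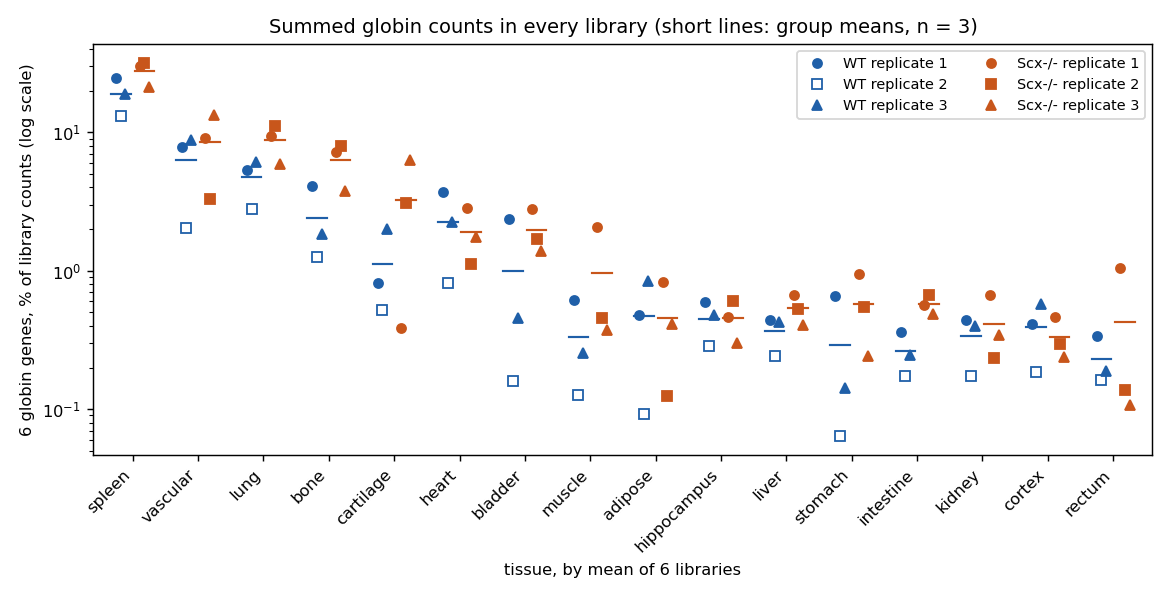
Summed counts of the 6 globin genes as a percentage of all counts in each library (log axis), for 16 tissues ordered by their mean, with WT in blue, Scx-/- in orange and short lines at group means (n = 3). Spleen libraries sit between 13.1% and 31.9%, and the open squares of WT replicate 2 are the lowest of 6 in 14 tissues.

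The position of 1 set of libraries recurred from tissue to tissue. WT replicate 2 was the lowest of 6 libraries in 14 of 16 tissues, the exceptions being cartilage and rectum, and the lowest of the 3 WT libraries in all 16. Its summed level was 0.113 to 0.613 times the mean of WT replicates 1 and 3, with a median of 0.392. Alpha globin genes alone gave a median ratio of 0.436 and were also below 1 in all 16 tissues. The same set stood apart by its beta globin genes, described below, so the genotype comparisons of summed globin, of Hba-a1 and of Alas2 are given with and without it.

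Alpha counts were a small and variable part of globin counts. The alpha genes made up 5.87% of globin counts, and single libraries ranged from 1.06% to 10.1% with a median of 6.11%. On counts per kilobase of RefSeq gene span, where alpha genes are 815 to 819 bases and beta genes 1374 to 1406, the alpha level was 0.0184 to 0.191 times the beta level, with a median of 0.111. Tissue medians of this ratio of levels lay between 0.0814 in cartilage and 0.133 in lung. Spans include introns and the reads favour 3′ ends, so the ratio describes these libraries and not the chains, which red cells make in nearly equal amounts.

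The alpha counts nearly all fell on Hba-a1. In spleen, Hba-a1 was at 14772, 6825 and 6856 CPM (counts scaled to library totals of equal size) in the WT libraries and at 16799, 16481 and 10081 CPM in the Scx-/- libraries. Hba-a2 was at 0, 0 and 1528 CPM in the WT libraries and at 0, 0 and 2081 CPM in the Scx-/- libraries. The only spleen libraries with Hba-a2 counts were therefore replicate 3 of each genotype.

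This division by replicate number held across the body. Hba-a2 had counts in 29 of 32 libraries of replicate 3 and in 3 of 64 libraries of replicates 1 and 2. In replicate 3 it took 1632 of 9573 alpha counts (17.0%), and elsewhere 8 of 34658 (0.0231%). The median share was 19.7% in WT replicate 3 and 17.4% in Scx-/- replicate 3. The counts outside replicate 3 were 5 in WT replicate 1 of cartilage, 2 in WT replicate 1 of liver and 1 in WT replicate 1 of adipose. In the cartilage library they were 5 of only 67 alpha counts (7.46%, exact 95% interval 2.47 to 16.6), so the pooled share does not describe it.

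Some of the zeros came with many alpha counts. WT replicate 1 of spleen had 6900 alpha counts and no Hba-a2, which by the rule of 3 counts allows a share of up to 0.0435%. The 3 libraries of replicate 3 without Hba-a2 had 24 (stomach, WT), 1 (rectum, WT) and 5 (intestine, Scx-/-) alpha counts. Those of rectum and intestine were too few to place them. In stomach the exact 95% interval, 0 to 14.2%, lay below the median share of WT replicate 3, 19.7%. In cartilage the Scx-/- replicate 3 library did not follow its set: Hba-a2 had 2 of 663 alpha counts (0.302%, exact 95% interval 0.0366 to 1.09), and cortex was also low at 2.92% (0.956 to 6.69). In adipose WT replicate 3 was low as well, with 1 of 52 alpha counts (1.92%, 0.0487 to 10.3). Intervals and limits cover counting error only.

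No other gene of the table showed that pattern. When all 41575 symbols were searched for counts in at least 24 of the 32 replicate 3 libraries and at most 6 of the other 64, Hba-a2 was the 1 gene found. The search was made after the pattern had been seen. Whether it comes from the mice, from the assignment of shared reads or from another step was not tested.

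The beta genes separated the libraries by another line. In spleen, Hbb-b1 was at 202128, 53799 and 153881 CPM in the WT libraries and at 248667, 267109 and 175706 CPM in the Scx-/- libraries. Hbb-bs was at 8.56, 50719 and 10.5 CPM in WT and at 64.1, 10.7 and 5.51 CPM in Scx-/-. WT replicate 2 thus held the 2 genes at nearly equal levels, while the other 5 libraries held Hbb-b1 with traces of Hbb-bs.

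The minor gene of each pair went with its partner. Hbb-b2 was at 29504, 10015 and 27736 CPM in WT spleen and at 37450, 35421 and 24214 CPM in Scx-/- spleen. Hbb-bt was at 9367 CPM in WT replicate 2 of spleen and at 0 in the other 5 spleen libraries.

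Every tissue repeated this division. In the 16 libraries of WT replicate 2, Hbb-bs and Hbb-bt together had 23159 of 48125 beta counts (48.1%), and single tissues ranged from 38.5% to 59.6%. In the other 80 libraries they had 98 of 661048 beta counts (0.0148%), with counts in 28 of them, at most 15 in a library and at most 0.594% of its beta counts. No library of any genotype lay between 0.594% and 38.5%. Hbb-b1 and Hbb-b2 passed 10% of beta counts in all 96 libraries, and Hbb-bs with Hbb-bt did so in 16.

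Within WT replicate 2 the 2 gene pairs were close to even, but not exactly so. Hbb-b1 and Hbb-b2 had 24966 of the beta counts, or 51.9%. The exact 95% interval of their share included 50% in 6 tissues, lay above it in 9 and below it in 1, intestine, at 40.4% (33.7 to 47.4, 208 beta counts). In spleen the share was 51.5% (51.0 to 52.0, 35927 beta counts), and in muscle 57.8% (54.7 to 60.9, 1010 beta counts). The 7 tissues with at least 1000 beta counts ran from 49.9% in cortex to 57.8% in muscle.

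**Figure D2:**
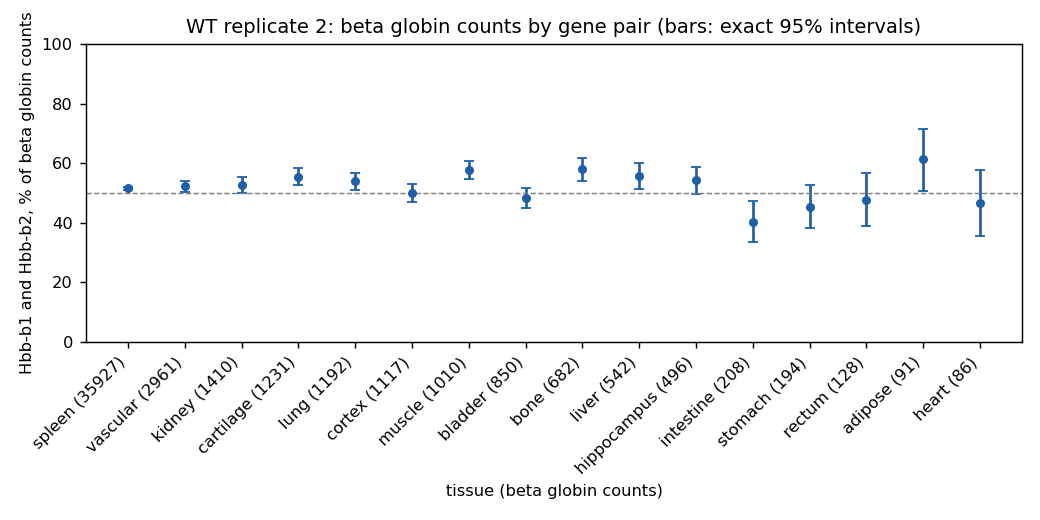
Share of beta globin counts on Hbb-b1 and Hbb-b2 in the 16 libraries of WT replicate 2, in percent, with exact 95% binomial intervals and tissues ordered by their number of beta counts (in parentheses). Points lie between 40.4% and 61.5% around the dashed line at 50%.

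In the WT replicate 2 libraries together, Hbb-b2 made up 14.9% of Hbb-b1 plus Hbb-b2, and Hbb-bt 14.1% of Hbb-bs plus Hbb-bt. Spleen held 17423 of the 23159 counts behind the second value. By medians over the 16 tissues the shares were 13.5% for Hbb-b2 and 8.62% for Hbb-bt, and the Hbb-b2 share was the higher in 12 tissues. The tissues were uneven: the Hbb-bt share was 22.6% in bone, 15.6% in spleen and 0 of 35 counts in adipose, which allows a share of up to 8.57%. Over all 96 libraries the median Hbb-b2 share of its pair was 11.3%.

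By counts, Hbb-bs separated WT replicate 2 in every tissue, with at least 35 counts in each of its 16 libraries and at most 15 in any other. Hbb-bt had counts in 15 of the 16 libraries of that set, with 0 in adipose and 1 in heart and in rectum. It had counts in 2 of the other 80, WT replicate 3 of lung with 7 counts and Scx-/- replicate 1 of lung with 1 count. Of all 41575 symbols, Hbb-bt was the 1 gene with counts in at least 12 libraries of that set and in at most 8 others, a limit chosen after the values were seen. Hbb-bs missed it because traces of it, at most 15 counts, were in 27 other libraries.

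**Figure D3:**
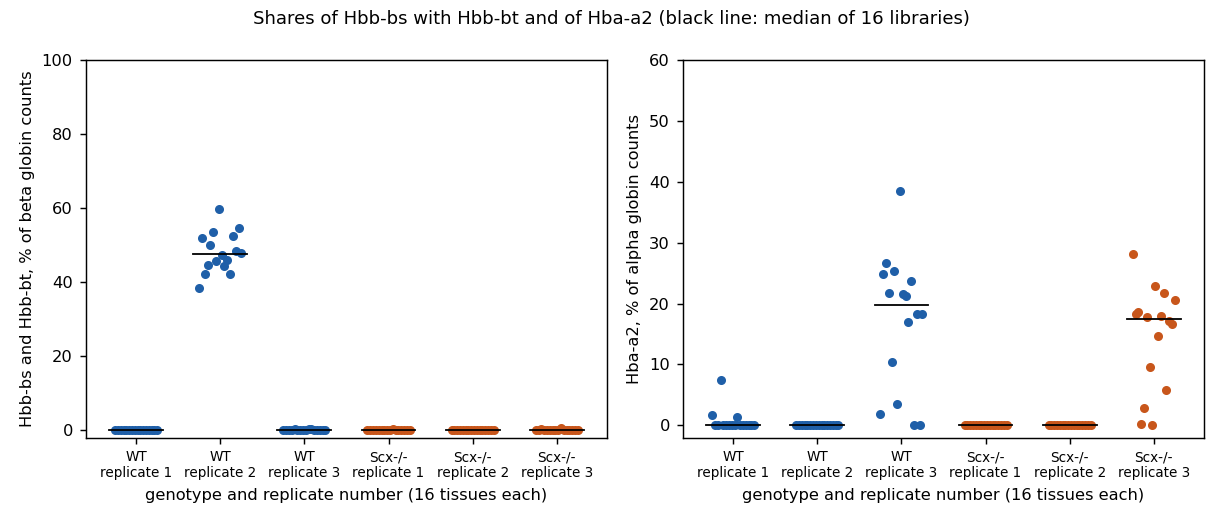
Left, Hbb-bs and Hbb-bt as a percentage of beta globin counts, and right, Hba-a2 as a percentage of alpha globin counts, for the 16 tissue libraries of each genotype and replicate number (1 point per library, black lines at medians). WT replicate 2 stands alone on the left with a median of 47.5%, and replicate 3 of both genotypes stands apart on the right with medians of 19.7% and 17.4%.

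Genes of the sex chromosomes also ran by replicate number across tissues. Xist, the RNA that silences an X chromosome in female cells, had counts in 16 of 16 libraries of WT replicate 1, WT replicate 3 and Scx-/- replicate 1. It had counts in 1 library of WT replicate 2, 5 of Scx-/- replicate 2 and 2 of Scx-/- replicate 3, and the Y-linked Ddx3y in 13, 13 and 15 libraries of these sets, with 447, 523 and 523 counts. The Xist counts of these sets were 1, 205 and 26. In the sets with Xist throughout, Ddx3y had 28 counts in 4 libraries of WT replicate 1, 2 counts in 2 libraries of WT replicate 3 and 39 counts in 5 libraries of Scx-/- replicate 1. WT replicate 2 was the only WT set with this profile, and its part in the lower globin level was not tested. Libraries of 1 number within a genotype thus shared features across most tissues, with exceptions such as replicate 3 of cartilage (Scx-/-) and of adipose (WT) for Hba-a2. Of the 90 libraries with counts of Xist or Ddx3y, 5 had more of the gene that was lower in their set, and 1, Scx-/- replicate 3 of cartilage, had 20 of each. The 5 were WT replicate 1 and Scx-/- replicate 2 of cartilage, Scx-/- replicates 1 and 2 of bone and Scx-/- replicate 2 of bladder. Cartilage therefore held 4 of the libraries that depart from their set or label, and whether samples were exchanged or mixed was not tested. The 16 tissues are therefore not taken as independent of each other.

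Between genotypes, the mean summed level was higher in Scx-/- than in WT mice in 13 of 16 tissues, but the ranges overlapped in 15 and the median was higher in 10. The ratio of means ran from 0.841 in heart to 2.92 in cartilage, with a median of 1.66. In cartilage the library labelled Scx-/- replicate 1, the one with Scx counts, was at 0.388% and the other Scx-/- libraries at 3.09% and 6.30%, against 0.520% to 2.01% in WT. Without it the Scx-/- mean there was 4.70%, against 1.12% in WT, and the groups did not overlap. How often all genes separate with 1 Scx-/- library left out was not counted. Both remaining Scx-/- libraries of cartilage and its WT replicate 1 also depart from their sets by Xist and Ddx3y, as described above. Without WT replicate 2 the ratio of means was above 1 in 11 tissues, ran from 0.638 in heart to 2.30 in cartilage and had a median of 1.33. These are descriptions of levels, with no test.

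The tissue without overlap was intestine. The 6 genes made up 0.363%, 0.173% and 0.248% of counts in its WT libraries and 0.566%, 0.663% and 0.491% in its Scx-/- libraries. All 3 Scx-/- libraries were above all 3 WT libraries, also without WT replicate 2. They were the shallowest of the tissue, with 26500 to 54955 counts. By single genes, Hbb-b1 did not overlap in intestine and lung, Hbb-b2 in intestine, and the other members in 0 tissues, where 7.96% of all gene and tissue pairs did not overlap. With 2 libraries per genotype separation is more frequent: without replicate 1, 2 or 3 of both genotypes, 27.6%, 26.2% and 26.4% of all pairs did not overlap, and summed globin did not in 8, 3 and 5 of 16 tissues.

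The quasi-likelihood F test of edgeR was fitted in each tissue to all genes with a count, and p was adjusted by Benjamini-Hochberg. The fit called 201 of 219996 gene and tissue pairs at an adjusted p under 0.05 (0.0914%), and 6 of 95 pairs of the 6 members. The calls were Hba-a1 in cartilage, Hbb-b1 in muscle and Hbb-bs in heart, muscle, rectum and stomach. The share of all genes called was 0.0222% in cartilage, 0.0482% in muscle, 0.0391% in heart, 0.441% in rectum and 0.0609% in stomach. The beta genes were chosen on differences between these libraries, so their calls are given as counts and nothing is read from them.

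The 4 Hbb-bs calls, all lower in Scx-/- mice, rested on WT replicate 2. In muscle its counts were 0, 389 and 0 in the WT libraries and 0 in all 3 Scx-/- libraries. In intestine they were 0, 109 and 0 in WT and again 0 in Scx-/-, without a call. Without WT replicate 2 the 6 members had 1 call, Hbb-b1 in muscle. There Hbb-b1 was at 4735, 581 and 1991 CPM in WT and at 16882, 3840 and 3158 CPM in Scx-/-, and the highest WT library, which had 30409 counts in all, lay above 2 of the Scx-/- libraries.

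Hba-a1 lies outside the beta cluster and had counts in every library. In cartilage it was at 285, 238 and 729 CPM in the WT libraries and at 310, 1398 and 2395 CPM in the Scx-/- libraries. The groups overlapped, since the library labelled Scx-/- replicate 1, whose Scx counts go against its label, lay below WT replicate 3. The fitted log2 fold change was 1.76 ± 0.392 (SE), with an edgeR adjusted p of 0.0470. The call was lost without WT replicate 2 (log2 fold change 1.46, edgeR adjusted p = 0.866). It was also lost by DESeq2, with filterByExpr, with a replicate block and without WT replicate 1, Scx-/- replicate 2 or Scx-/- replicate 3. The log2 fold change stayed above 0 in each of these, from 1.08 without Scx-/- replicate 3 to 1.76 by DESeq2. The call was kept with RLE scaling (edgeR adjusted p = 0.0483), library totals (0.0487) and without WT replicate 3 (0.00403). Without the library labelled Scx-/- replicate 1 the log2 fold change was 2.25 (edgeR adjusted p = 0.000191), where 0.0384% of all genes were called. Both remaining Scx-/- libraries also depart from their sets by Xist and Ddx3y.

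In the other tissues Hba-a1 was not called by the edgeR fit described above. Muscle had the highest fitted change, a log2 fold change of 2.29 ± 0.576 (SE, edgeR adjusted p = 0.0839), with 428, 96.4 and 129 CPM in WT and 1406, 276 and 174 CPM in Scx-/- libraries. In lung it was 1.07 ± 0.249 (edgeR adjusted p = 0.0859), with 4381, 2589 and 3233 CPM in WT and 6851, 8001 and 3439 CPM in Scx-/- libraries. In spleen it was 0.78 ± 0.336 (edgeR adjusted p = 0.788). The genotypes overlapped in all of these tissues. Without WT replicate 2 the log2 fold change of Hba-a1 was 2.01 in muscle (edgeR adjusted p = 0.519), 0.82 in lung (0.869) and 0.51 in spleen (0.939). Other settings gave calls, all higher in Scx-/- mice. Lung was called with RLE scaling (edgeR adjusted p = 0.0178), without WT replicate 1 (1.62e-06) and without Scx-/- replicate 3 (0.0156), and muscle with filterByExpr (0.0146). Without WT replicate 1, bladder (6.95e-10), bone (0.00816) and stomach (0.000206) were also called. Bladder was called with a replicate block (edgeR adjusted p = 0.000311). Without WT replicate 1, edgeR called 4 of 12633 genes in lung, 15 of 14578 in bladder, 5 of 11669 in bone and 17 of 14351 in stomach. Lung had 3 of 13746 genes called with RLE scaling and 2 of 13346 without Scx-/- replicate 3. Muscle had 7 of 6280 with filterByExpr, and bladder 17 of 15160 with the block.

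Over the 16 tissues the fitted Hba-a1 value was above 0 in 14 and below 0 in cortex and heart, with a median of 0.90 on the log2 scale. Scaled to library totals it was above 0 in 13. Without WT replicate 2 it was above 0 in 10 tissues, with a median of 0.49 and 0 calls, and the lowest edgeR adjusted p was 0.519. Leaving out another library also moved the median, to 1.48 without WT replicate 1 (4 calls) and 0.54 without WT replicate 3. It was 0.42, 0.84 and 1.09 without Scx-/- replicates 1, 2 and 3. Without Scx-/- replicate 1 the value was likewise above 0 in 10 tissues. Hba-a2 gave no usable fold change, since its counts came from 1 library per genotype in nearly every tissue: 0 of 16 tissues were called by edgeR, 1 had an unadjusted p under 0.05, and DESeq2 called 0.

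**Figure D4:**
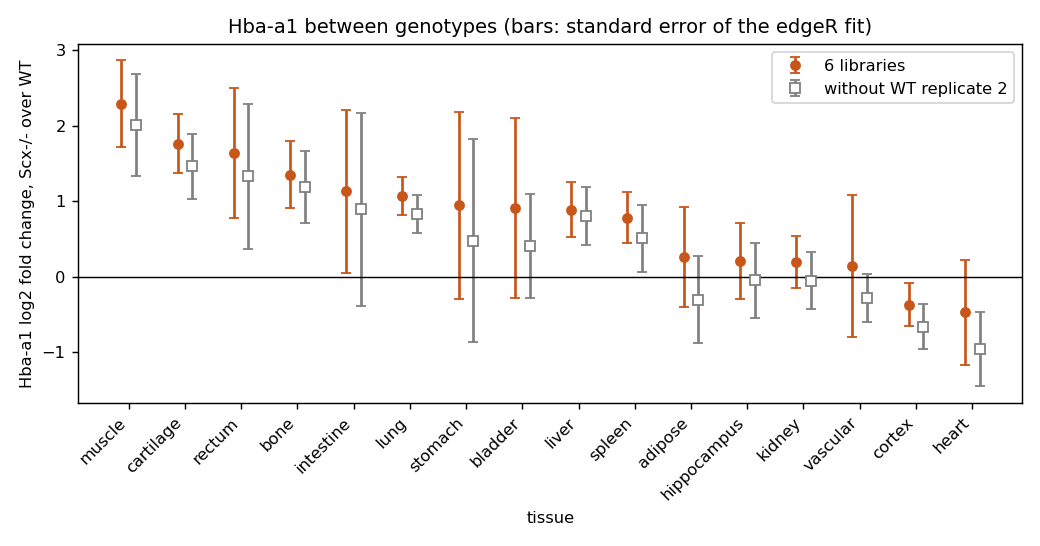
Fitted log2 fold change of Hba-a1, Scx-/- over WT, in 16 tissues, with standard errors from the edgeR fit, for all 6 libraries (orange) and without WT replicate 2 (grey open squares). With all 6 libraries 14 tissues lie above 0, and without WT replicate 2, 10 do.

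Genes of heme synthesis supply the group that each globin chain binds. The list held 13 genes, all measured, and edgeR called 0 of 204 gene and tissue pairs. At an unadjusted p under 0.05 there were 9, 8 of them higher in Scx-/- mice, where 4.01% of all gene and tissue pairs passed that limit. DESeq2 called 0, where it called 0.0976% of all pairs with an adjusted p, and the median log2 fold change of the list was 0.02. Alas2, the red cell form of the first and rate-limiting enzyme of the pathway, was the most abundant at a mean of 384 CPM, followed by Slc25a39, a mitochondrial carrier, at 239 CPM and Fech, which inserts iron into the ring, at 195 CPM.

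Alas2 was highest in spleen. There it was at 2612, 1711 and 1649 CPM in WT and at 3574, 4424 and 1591 CPM in Scx-/- libraries, and in bone at 303, 33.5 and 149 CPM in WT and at 1243, 1296 and 426 CPM in Scx-/- libraries. The bone groups did not overlap, but the fitted log2 fold change of Alas2 there, 2.70 ± 0.703 (SE), had an edgeR adjusted p of 0.636. Without WT replicate 2 it was 2.19 ± 0.724 (edgeR adjusted p = 0.790). Alas2 also did not overlap in muscle, with 0, 18.4 and 19.0 CPM in WT and 265, 41.4 and 49.6 CPM in Scx-/- libraries, nor in stomach, with 6.81, 0 and 0 CPM in WT and 130, 32.3 and 32.5 CPM in Scx-/- libraries. Over all gene and tissue pairs, 7.96% did not overlap. The fitted log2 fold changes were 3.03 ± 0.913 (edgeR adjusted p = 0.336) in muscle and 4.58 ± 1.39 (0.458) in stomach, and without WT replicate 2 they were 3.14 (0.540) and 4.06 (0.873). Alas2 was called in bone and muscle without WT replicate 1 (edgeR adjusted p = 0.0126 and 0.00170) and in bone without Scx-/- replicate 3 (0.0194). Without WT replicate 1, 5 of 11669 genes were called in bone and 59 of 14421 in muscle. Without Scx-/- replicate 3, 2 of 12120 were called in bone. The lowest Alas2 value in spleen was in a Scx-/- library.

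Erythroid transcription factors switch on the globin genes in red cell precursors. Of 10 genes in 114 gene and tissue pairs, edgeR and DESeq2 each called 0, with 5 pairs at an unadjusted p under 0.05 by edgeR and a median log2 fold change of 0.44. Klf1, the factor of the beta promoter's CACCC box, had a mean of 518 CPM in spleen and 178 CPM in bone, and was at 0 in all heart, kidney and muscle libraries. Ldb1 and Lmo2, adaptor proteins of the erythroid complex, had the highest means of the list with 78.7 and 58.4 CPM.

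Red cell membrane and enzyme genes were not called with all 6 libraries. Of 34 listed genes 33 were in the table, Ahsp being the missing one, and 32 were tested in 404 pairs. edgeR and DESeq2 called 0, edgeR gave 26 pairs at an unadjusted p under 0.05, 22 of them higher in Scx-/- mice, and the median log2 fold change was 0.13. Over all genes 4.01% of pairs passed the unadjusted limit, and 50.2% of these were higher in Scx-/- mice. Car2 (carbonic anhydrase), Cat (catalase) and Aqp1 (a water channel) had the highest means, 419, 359 and 279 CPM, and each is also made by other cells. Cat was highest in liver and Car2 in spleen, at a mean of 2643 CPM. Aqp1 had a mean of 670 CPM in kidney, and in spleen 793 CPM in WT and 545 CPM in Scx-/- libraries. Slc4a1, the anion exchanger of the red cell membrane, was highest in spleen, at a mean of 2436 CPM. Without WT replicate 2 edgeR again called 0 pairs of the heme, transcription factor and red cell lists, with 6, 5 and 19 pairs at an unadjusted p under 0.05.

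In spleen the transcription factor and red cell lists did not follow the globin genes. Summed transcription factors were at 1816, 2700 and 3404 CPM in the WT libraries and at 3403, 852 and 716 CPM in the Scx-/- libraries. The red cell list was at 13571, 14805 and 25485 CPM in WT and at 26178, 8950 and 7714 CPM in Scx-/-. Scx-/- replicates 2 and 3 thus lay below all 3 WT libraries by both lists, while Scx-/- replicate 1 lay at or near the top, and summed globin was at 31.9% and 21.2% of counts in the 2 low libraries. Klf1 was at 413, 617 and 859 CPM in WT and at 1064, 64.3 and 88.1 CPM in Scx-/- spleen. In bone, summed transcription factors were at 134 to 503 CPM in WT and 544 to 1297 CPM in Scx-/- libraries, higher without overlap. The red cell list overlapped there, at 2761 to 4057 CPM in WT and 3856 to 9930 CPM in Scx-/-. Klf1 in bone was at 156, 0 and 21.2 CPM in WT and at 200, 217 and 473 CPM in Scx-/- libraries (edgeR adjusted p = 0.636).

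Without Scx-/- replicate 1, edgeR called 39 genes in spleen (0.289%), 30 of them lower in Scx-/- mice, against 1 with all 6 libraries. Of the 3 lists, 12 genes were among them and all were lower in Scx-/- mice. They were the transcription factor genes Gata1, Klf1 and Tal1, the heme synthesis genes Alad and Cpox, and the red cell genes Car2, Ermap, Hemgn, Kel, Prdx2, Rhd and Tfrc. The log2 fold change was -2.82 for Klf1 (edgeR adjusted p = 0.00296) and -5.22 for Gata1 (0.00249), both of them factors that act in red cell precursors. These calls rest on leaving out 1 library, and why the 3 Scx-/- libraries differ was not tested. With all 6 libraries, some red cell genes had higher spleen means in Scx-/- mice, without a call. Bpgm was at 1397 CPM against 682 CPM in WT, and Epb41 at 882 CPM against 406 CPM.

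The remaining globin genes were rare or belonged to other cells. Of the 6 embryonic and minor globin genes, Hba-x, Hbb-bh1 and Hbb-bh2 had 0 counts in all 96 libraries and Hbb-y had 1, while Hbq1b had 153 and Hbq1a 44. edgeR and DESeq2 called 0 of 10 pairs, with 1 at an unadjusted p under 0.05. Outside red cells, Mb (myoglobin, the oxygen store of muscle fibres) was highest in heart, at a mean of 17109 CPM, Cygb (cytoglobin) in bone at 162 CPM and Ngb (neuroglobin) in bladder at 52.3 CPM. edgeR called 0 of 38 pairs of these 3 genes, with 3 at an unadjusted p under 0.05. DESeq2 called 2 of the 28 pairs with an adjusted p, where it called 0.0976% over all genes. Both were Mb, lower in Scx-/- muscle (log2 fold change -2.06, DESeq2 adjusted p = 0.0432) and higher in Scx-/- rectum (5.63, 0.0358). In muscle Mb was at 3058, 832 and 1409 CPM in WT and at 592, 197 and 200 CPM in Scx-/- libraries, so the groups did not overlap. By edgeR its log2 fold change there was -1.82 ± 0.482 (SE, edgeR adjusted p = 0.166), and it was called with RLE scaling, library totals and filterByExpr. In those settings edgeR called 15, 32 and 7 genes in muscle, of which 1, 1 and 3 were higher in Scx-/- mice. In rectum Mb was at 0, 0 and 20.1 CPM in WT and at 50.8, 234 and 274 CPM in Scx-/- libraries, without overlap. There the edgeR log2 fold change was 5.6 ± 1.7 (SE, edgeR adjusted p = 0.185). Mb was called in rectum without WT replicate 3 (edgeR adjusted p = 0.0227) and without Scx-/- replicate 1 (0.0414), each among 62 genes called.

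Genes that clear haemoglobin and heme were led by the plasma carriers made in liver. Hp (haptoglobin), which binds free haemoglobin, had a liver mean of 4524 CPM, and Hpx (hemopexin), which binds free heme, 4877 CPM. Blvrb, a biliverdin reductase also found in red cells, was highest in spleen at a mean of 1154 CPM. edgeR called 0 of 125 pairs of 9 genes, 8 had an unadjusted p under 0.05, and DESeq2 called 0.

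Markers of other blood cells were measured beside the globin genes. In bone, the summed neutrophil markers ran from 2334 to 7844 CPM in WT and from 5102 to 8368 CPM in Scx-/- libraries, and in cartilage from 505 to 1436 CPM in WT and from 347 to 6750 CPM in Scx-/- libraries. All 12 neutrophil markers had counts in cartilage, the tissue of the Hba-a1 call, and S100a8, S100a9 and Ngp were called there, all higher in Scx-/- mice, when the library labelled Scx-/- replicate 1, the one with Scx counts, was left out (0.0384% of all genes were called in that setting). Their part in the Hba-a1 call was not tested. In intestine, where summed globin did not overlap, they overlapped, at 75.0 to 213 CPM in WT and 37.7 to 267 CPM in Scx-/-. edgeR called 2 of 125 neutrophil pairs, Lcn2 and Ltf in rectum, where 0.441% of all genes were called, and both were higher in Scx-/- mice. At an unadjusted p under 0.05 there were 11 pairs, and DESeq2 called 1 of the 85 pairs to which it gave an adjusted p.

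The other blood cell lists gave no calls. B cell markers had 0 calls in 80 pairs, with 1 at an unadjusted p under 0.05 by edgeR and 0 calls by DESeq2, and platelet markers 0 in 41 pairs, with 1 at an unadjusted p under 0.05 and 0 calls by DESeq2. Of 10 platelet markers, 4 were at 0 in all 96 libraries, among them the defining genes Pf4 and Ppbp. In spleen the summed B cell markers ran from 980 to 2642 CPM in WT and from 1338 to 2698 CPM in Scx-/- libraries.

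Alas2 was the gene whose level was most like that of the 6 members. On log2(CPM + 1) over 96 libraries, which share tissues and depth, its Pearson r with the summed globin level was 0.83 (Spearman 0.84). Slc25a37 (mitoferrin, which carries iron to heme synthesis) followed at 0.72 (0.69), Isg20, an exonuclease, at 0.71 (0.72), Chil3, a chitinase-like protein of myeloid cells, at 0.69 (0.58) and Slc4a1 at 0.69 (0.62). These were the 5 highest of 10372 genes with a mean of at least 10 CPM and counts in at least 24 libraries.

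**Figure D5:**
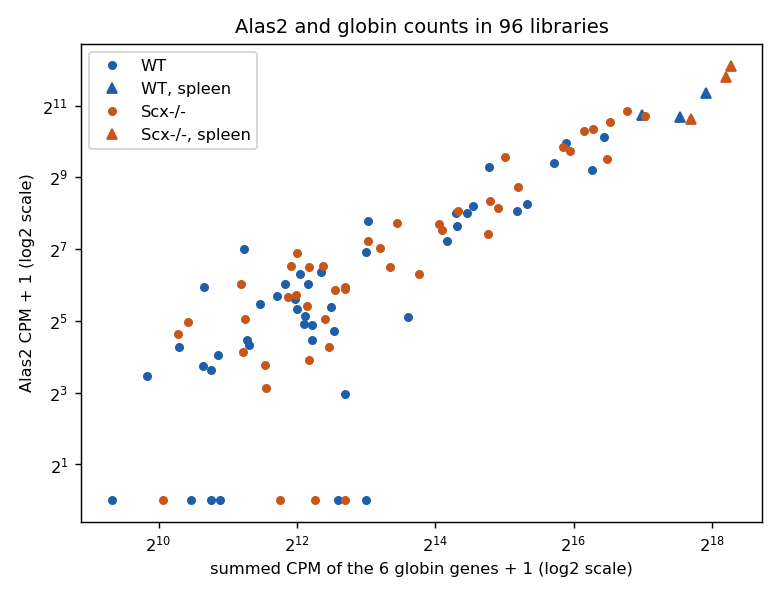
Alas2 CPM against the summed CPM of the 6 globin genes in 96 libraries, both plus 1 on log2 axes, with WT in blue, Scx-/- in orange and spleen as triangles. The points rise together (Pearson r 0.83) up to the spleen libraries, and the points on the lower edge are libraries with no Alas2 count.

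With tissue means subtracted, Alas2 again came first, at r = 0.58 (Spearman 0.59). It was followed by Xist at 0.47 (0.41), Slc4a1 at 0.45 (0.40), Gm7665 at 0.44 (0.40) and the ribosomal protein gene Rpl26 at 0.41 (0.25). The ratio of Hbb-b1 plus Hbb-b2 to Hbb-bs plus Hbb-bt, on a log2 scale with 0.5 added to each count, went most closely with Rpl26 at 0.53 (0.24), Rplp1 at 0.51 (0.37), Pcbp2 at 0.50 (0.24), Xist at 0.48 (0.35) and Pim3 at 0.47 (0.31). Rplp1 encodes another ribosomal protein, Pcbp2 an RNA-binding protein and Pim3 a kinase. The 16 libraries of WT replicate 2 alone have a low ratio, and the 5 values were not computed without them. In libraries with 0 counts of Hbb-bs and Hbb-bt the ratio follows the number of beta counts.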

How the data were processed

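The authors barcoded each sample's RNA during reverse transcription, pooled the samples, mapped reads to mm10 with Bowtie2 and counted them per gene with HTSeq, per the labels and the methods of the study. Tool versions, the gene annotation and the strand setting were not given in the sources used here. The deposited values are raw whole-number counts for 41575 gene symbols, without normalization, and no column was left out.

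CPM was computed on library totals of 11244 to 1658192 counts. Genotypes were compared within each tissue (3 against 3 libraries) by edgeR 4.0.16 in R 4.3.3, with TMM factors, robust estimateDisp and glmQLFit, after removal of genes at 0 in all 6 libraries, and with Benjamini-Hochberg adjustment. The fit was tested on simulated data. Alternatives were RLE factors, library totals, filterByExpr, DESeq2 1.42.0, a replicate block and leaving out each library. Shares have exact (Clopper-Pearson) 95% intervals from scipy 1.17.1, with limits from 3 counts where a count was 0. Sequences came from GENCODE and RefSeq tables of GRCm38, and all 4 genes given there matched by symbol.

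The members and all gene lists were chosen with earlier results of these data known. Named besides the members were the 3 most abundant genes of each heme, transcription factor and red cell list, every list gene called, and the 5 genes most like the summed level or the ratio of beta genes. Other list genes that are named, and the search for genes with the same presence pattern, were chosen after their values were seen. Replicates are separate samples of 1 group by their labels. Nothing says that they are separate mice, so p-values measure the spread between samples. Replicates of a group differed by at least 6.93 chi-square per degree of freedom.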

Additional observations from a re-analysis of the deposited data

How the results depend on the processing

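Depth limits most of these results: a share of alpha or beta counts in a shallow tissue rests on few counts. The Hba-a1 log2 fold change exceeded its SE in 9 of 16 tissues and 2 SE in 6. The 6 calls among globin genes became 2 by DESeq2 and 1 with filterByExpr, under which Hba-a2 was tested in 0 tissues, and 1 to 14 when a library was left out, with 1 when WT replicate 2 was dropped, 14 when WT replicate 1 was, and 3 and 2 when Scx-/- replicates 1 and 2 were. DESeq2 called 0.0976% of all pairs with an adjusted p. With filterByExpr 7 of 6280 genes were called in muscle, the tissue of its 1 globin call. All-gene calls also moved, for example without WT replicate 1. They rose from 7 to 59 in muscle and from 59 to 80 in liver, and fell from 63 to 42 in rectum and from 17 to 15 in bladder. Calls rose from 0 to at most 2 for heme synthesis, 7 for red cell and 3 for transcription factor genes when a library was left out, with a lowest count of 0 in each; without Scx-/- replicate 1 there were 2, 7 and 3 calls, all in spleen and all lower in Scx-/- mice, and heme synthesis also had Alas2 in bone and muscle without WT replicate 1 and in bone without Scx-/- replicate 3, higher in Scx-/- mice. The cause was not tested.

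The number of tissues without overlap of summed globin, 1, became 2 with TMM effective library sizes and 8, 3 and 5 when replicate 1, 2 or 3 was left out of both genotypes, where 27.6%, 26.2% and 26.4% of all gene and tissue pairs did not overlap. It stayed at 1 without WT replicate 2 alone, an alternative chosen after seeing the data, as was the count of 16 libraries with over 10% of Hbb-bs and Hbb-bt. That count and the 96 libraries with over 10% of Hbb-b1 and Hbb-b2 kept their values under every threshold, minimum count and gene pair tried.

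The Hba-a1 value turned negative in adipose with RLE (-0.20), library totals (-0.27), DESeq2 (-0.20) and filterByExpr (-0.071), and in hippocampus with RLE (-0.0044) and DESeq2 (-0.0022). Library totals in place of TMM moved the Hba-a1 log2 fold change by over 0.1 in 11 tissues, by -0.55 to 0.51. For Hba-a2, library totals gave 0.094 in bone and -0.033 in muscle, and RLE -0.066 in muscle.

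With a library left out, Hba-a1 changed sign in adipose (-0.69 to 0.84), heart (-1.05 to 0.77), hippocampus (-0.17 to 0.83), kidney (-0.55 to 0.71), rectum (-0.42 to 3.01) and vascular samples (-0.29 to 0.77). Hba-a2, carried by replicate 3, did so in adipose (-3.15 to 3.35), bladder (-6.39 to 7.42), bone (-5.45 to 5.39), cortex (-5.98 to 3.65), heart (-7.91 to 6.82), hippocampus (-2.53 to 3.69), kidney (-6.42 to 5.58), liver (-5.97 to 2.60), lung (-7.75 to 8.30), muscle (-6.16 to 6.48), spleen (-9.87 to 10.4) and vascular samples (-8.72 to 9.45).

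WT and Scx-/- libraries with the same number are not stated to be paired, and their deviations from group means did not correlate in any tissue (-0.139 to 0.0306 over 48 pairs). With the replicate number as a block, 7 gene and tissue pairs of the globin genes were called, Hba-a1 was called in bladder (edgeR adjusted p = 0.000311) and no longer in cartilage, and in heart its value was 0.044. In the tissues of these calls, the block fit called 17 of 15160 genes in bladder, 47 of 13356 in liver and 23 of 15377 in kidney. It called 3 of 14532 in muscle, 2 of 16842 in cortex, 2 of 14117 in hippocampus and 1 of 13894 in spleen.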
